A study of Mus musculus and Homo sapiens with 56 samples.

Results

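Described here are 29 mouse genes of cholesterol synthesis and sterol control, taken by name from a table of RNA-seq counts that lists 52459 genes. In pathway order they are 8 genes of the mevalonate and isoprenoid steps (Acat2 to Ggps1), 12 genes of the sterol steps (Fdft1 to Dhcr7), 5 genes of sterol sensing (Srebf1, Srebf2, Scap, Insig1 and Insig2) and 4 genes of sterol transport and storage (Stard4, Soat1, Abca1 and Npc1). Members of the last group move, store or export sterol, so the list reaches beyond synthesis. Other enzymes of the pathway were not analysed here. All 29 genes passed the filter on low counts and entered the test.

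The series asks how N6-methyladenosine (m6A) on RNA bound to chromatin relates to the histone mark H3K9me2. The samples used are E14TG2a mouse embryonic stem cells, wild type (WT) or with the D395A substitution in METTL3, and both are labelled untreated. METTL3 is the catalytic subunit of the complex that writes most m6A in messenger RNA, and the substituted residue lies in its catalytic centre. The growth protocol for E14TG2a is gelatin-coated plates and N2B27 medium with LIF, a MEK inhibitor (PD0325901), a GSK3β inhibitor (CHIR99021) and a serum replacement. RNA-seq covers 2 WT and 2 D395A libraries of total RNA depleted of ribosomal RNA. The m6A lists come from antibody pull-down of fragmented chromatin RNA, with 2 immunoprecipitated libraries behind the WT list and 1 behind the D395A list. The labels do not say whether the D395A cells are 1 clone or several, nor whether replicates came from separate cultures, so the p-values measure only the spread between libraries.

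Cholesterol is made from acetyl-CoA. The mevalonate steps build isoprenoid units and join them to farnesyl diphosphate, from which squalene, and after ring closure lanosterol and then cholesterol, are made. The pathway is controlled by SREBP transcription factors, which the endoplasmic reticulum holds in place through SCAP and the INSIG proteins while sterol is plentiful. When sterol is scarce, SCAP carries SREBP to the Golgi, where proteases free its active part, which binds sterol regulatory elements in the promoters of synthesis genes, often beside sites for NF-Y and Sp1. Surplus cholesterol is esterified by SOAT1 or exported by ABCA1. m6A sits mostly near stop codons and in long last exons, where it is best known for shortening the life of a messenger RNA.

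Promoter sequences show what the members share beyond function. RefSeq promoters (build GRCm38.p6, 250 bases before to 50 bases after each start) were matched for 24 of the 29 members, with 32 promoters among them. Both strands were searched for a sterol regulatory element written as TCACNCCAC, for its shorter form TCACNCCA, which lies inside the longer one, for the NF-Y box CCAAT and for the GC box GGGCGG bound by Sp1. The longer form was found in Hmgcs1, and the shorter form in Hmgcs1, Msmo1 and Srebf2, which is 12.5% of the 24 members, against 4.62% of the 11379 tested genes with a promoter in the table and 4.36% of all 32851 promoters. A match is a run of letters, not a shown binding site. The bases upstream of the start are printed for Hmgcs1 and Srebf2, 5′ to 3′ on the gene's strand, as examples of the element beside both other boxes, which Msmo1 has too, and every whole motif match on either strand is in capitals.
Hmgcs1, chr13:119690101-119690350, plus strand: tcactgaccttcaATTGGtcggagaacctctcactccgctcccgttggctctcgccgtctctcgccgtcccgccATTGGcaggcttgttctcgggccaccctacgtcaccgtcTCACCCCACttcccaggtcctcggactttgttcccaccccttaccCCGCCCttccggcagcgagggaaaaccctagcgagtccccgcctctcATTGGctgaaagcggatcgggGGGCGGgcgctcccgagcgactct
Srebf2, chr15:82147019-82147265, plus strand: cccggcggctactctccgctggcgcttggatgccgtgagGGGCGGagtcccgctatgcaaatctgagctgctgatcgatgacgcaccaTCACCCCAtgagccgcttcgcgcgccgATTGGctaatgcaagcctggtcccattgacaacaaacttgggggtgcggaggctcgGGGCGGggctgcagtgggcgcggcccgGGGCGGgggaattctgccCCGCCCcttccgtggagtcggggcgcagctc
In Hmgcs1 the element starts at position -137 from the RefSeq start, in Srebf2 at -162 and in Msmo1 at -177.

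The NF-Y box was found in 21 of 24 members (87.5%), against 42.9% of tested genes and 37.4% of all promoters. Counted by promoter, it was in 22 of 32 (68.8%) against 37.6% of the promoters of tested genes. Acat2, Scap and Abca1 had no match. The GC box was found in 22 of 24 members (91.7%), against 67.2% of tested genes and 35.7% of all promoters. The last 80 bases before the start are printed for 6 members to show how close to the start the boxes lie, in genes whose RNA rose in D395A cells (Nsdhl, Sc5d, Scap and Abca1), fell (Ebp) or did not pass the test (Mvk). Capitals mark CCAAT or its reverse complement and GGGCGG or its reverse complement.
Mvk, chr5:114444189-114444268, plus strand: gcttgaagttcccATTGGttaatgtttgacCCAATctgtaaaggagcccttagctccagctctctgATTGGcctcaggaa
Nsdhl, chrX:72918441-72918520, plus strand: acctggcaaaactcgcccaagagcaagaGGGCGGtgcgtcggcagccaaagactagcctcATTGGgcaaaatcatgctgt
Sc5d, chr9:42264301-42264380, minus strand: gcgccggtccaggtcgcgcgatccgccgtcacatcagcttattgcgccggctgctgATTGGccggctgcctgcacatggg
Ebp, chrX:8193513-8193592, minus strand: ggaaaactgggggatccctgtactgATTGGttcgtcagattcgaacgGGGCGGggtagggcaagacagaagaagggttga
Scap, chr9:110333208-110333287, plus strand: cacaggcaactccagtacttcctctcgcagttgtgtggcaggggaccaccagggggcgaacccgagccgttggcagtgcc
Abca1, chr4:53159896-53159975, minus strand: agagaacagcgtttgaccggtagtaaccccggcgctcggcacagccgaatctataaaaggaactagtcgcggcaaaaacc
Mvk holds 3 CCAAT boxes in this stretch, and Nsdhl, Sc5d and Ebp hold 1 each. Scap and Abca1 hold neither box in this stretch. Ebp, whose RNA fell, has both boxes there, as does Nsdhl, whose RNA rose. Outside the printed stretches, Scap has a GC box at -30 from another RefSeq start, and Abca1 has GC boxes at -163 and -97.

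RNA levels are given as CPM, the read counts of a gene scaled to the size of its library with TMM factors. Totals were 12743677 to 19246342 counts per library. WT and D395A were compared with edgeR's quasi-likelihood test, p-values were adjusted by Benjamini-Hochberg over the 17778 genes tested, and an adjusted p below 0.05 is called a rise or a fall. Stem cell markers were strongly expressed, with a summed level over 12 genes of 4573 to 4688 CPM in WT and 2542 to 2550 CPM in D395A, where 9 of the 12 fell and 1 rose. Feeder markers summed to 7.14 to 7.32 CPM in WT and 4.68 to 5.33 CPM in D395A over 8 genes, with S100a4 at 0. Primitive endoderm markers summed to 16.1 to 16.4 CPM in WT and 56.3 to 61.4 CPM in D395A over 8 genes, and trophoblast markers over 5 genes to 0.966 to 1.20 CPM and 3.67 to 4.18 CPM, with Prl3d1 at 0. Neural markers over 6 genes summed to 49.7 to 54.9 CPM in WT and 52.1 to 57.4 CPM in D395A, the highest having a mean of 32.2 CPM. Of the tested genes, 3 of 5 neural markers rose and 1 fell, and 3 of 6 primitive endoderm markers rose and 1 fell. Of 5 tested feeder markers 1 rose and 2 fell, and the 1 tested trophoblast marker rose. For comparison, 36.8% of all tested genes rose and 34.3% fell. The part of these marker differences in the results was not tested, and in bulk RNA a change in the mix of cells and a change in RNA per cell cannot be told apart. Mettl3, whose substitution leaves its RNA countable and so checks no genotype, was at 36.2 and 35.5 CPM in WT, against 30.6 and 33.9 CPM in D395A.

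Synthesis and control genes rose more often than they fell in D395A cells. Of the 29 genes, 16 rose, 5 fell and 8 did not pass. Over all tested genes 36.8% rose and 34.3% fell, and among the 9435 genes within the members' range of mean CPM (12.4 to 512.9) these shares were 34.4% and 41.3%. The log2 fold change had a median of 0.18 in the 29 genes, 0.00 in all tested genes and -0.06 in genes of the same range. Most changes were small. At least 1.5-fold rises were found in 5 members (Fdps, Dhcr7, Scap, Soat1 and Abca1) and a fall of that size in 1 (Ebp), against 26.9% and 20% of all tested genes and 17.2% and 16.8% of those in the range. Both D395A libraries lay above both WT libraries in 20 members and below them in 7, against 43.1% and 42% of all tested genes, and only in Fdft1 and Hsd17b7 did the groups overlap. With DESeq2 in place of edgeR 14 rose and 2 fell, against 31.6% and 26.6% of all tested genes. Fewer members passed without WT replicate 1 or without WT replicate 2, where their median log2 fold change was 0.146 and 0.144. In both cases the share of members that rose was close to that of all tested genes.

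**Figure D1:**
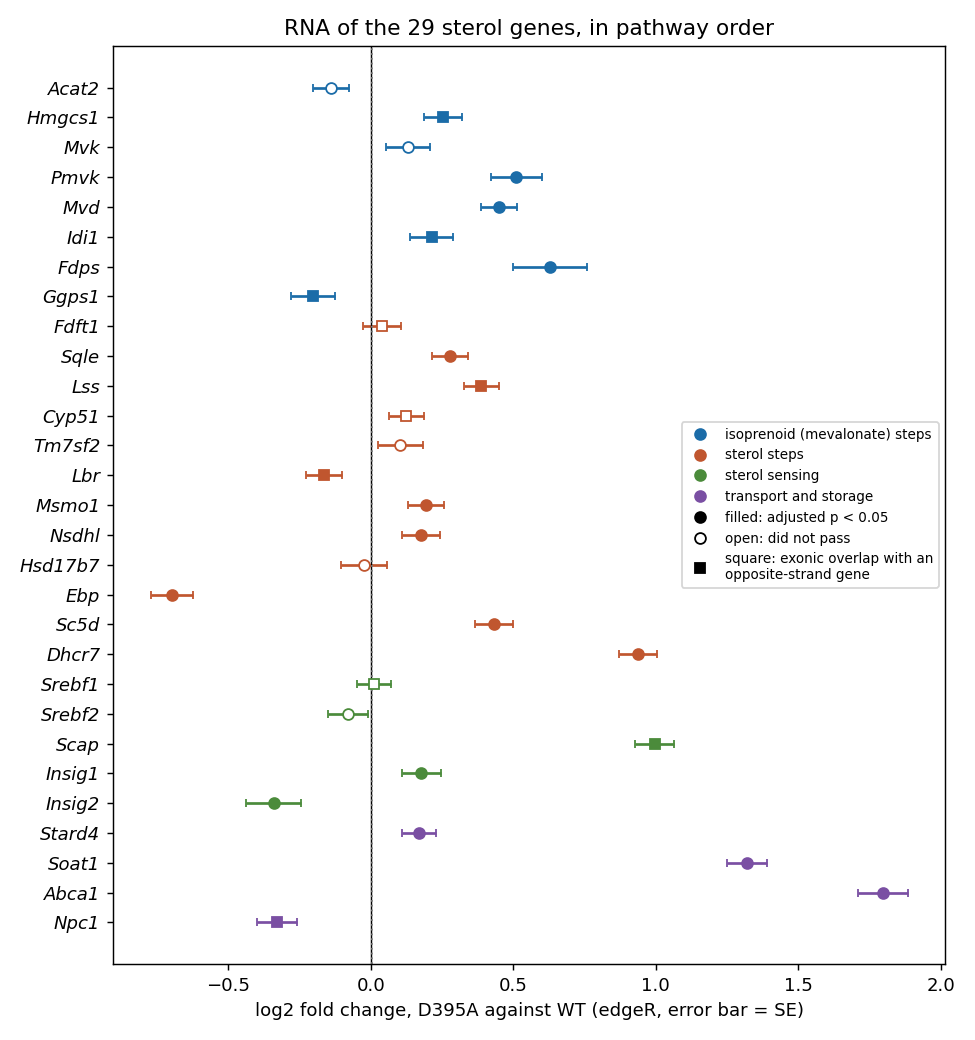
Log2 fold change of D395A against WT for each of the 29 genes in pathway order (x axis), with SE from the edgeR fit as error bars (2 libraries per group). Filled symbols passed the test, open symbols did not, and squares mark genes with exonic overlap on the opposite strand. The points run from Ebp at -0.70 to Abca1 at 1.80.

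A feature of these libraries bears on 10 of the members. Their exons share bases with a gene on the other strand, and several of these partners had counts in D395A but almost none in WT. The library kit marks strand, per the labels, but no source used here gives the strand setting with which reads were counted. The partner of Hmgcs1, AC123738.2, was at 0.523 and 0 CPM in WT, against 39.7 and 27.3 CPM in D395A, and Dnah14, the partner of Lbr, went from 0.299 and 0.322 to 14.8 and 10.3 CPM. Reads of a gene and its partner cannot be told apart over shared bases, and how the libraries were made or counted cannot be told apart from the D395A genotype. Among the 19 members with no such overlap, 12 rose and 2 fell, against 32.3% and 37.1% of the 12377 tested genes without overlap. Among the 10 with overlap, 4 rose, 3 fell and 3 did not pass. Of tested genes in the members' range of CPM, 31% rose and 42.7% fell at an overlap above 0 and up to 5%. These shares were 33.2% and 40.4% above 5% and up to 10%, and 36% and 40.3% above 10% and up to 25%.

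Levels per kb of exon set the members in order within the WT cells. Srebf2, the SREBP form that favours cholesterol genes, stood highest at 109.5 and 101.9 CPM per kb, followed by Hmgcs1 at 74.1 and 76.2, Insig1 at 71.5 and 66.3, Lbr at 61.7 and 60.7 and Acat2 at 52.4 and 49.1 CPM per kb. The lowest levels were those of Fdps at 2.34 and 2.31, Soat1 at 3.45 and 3.32 and Abca1 at 3.68 and 4.20 CPM per kb. Of the 28 pairs of neighbours in this order, 6 had overlapping WT ranges. The length used covers the merged exons of all transcripts, so genes whose main transcript is shorter stand lower in this order. Srebf2 was above Srebf1, at a mean of 105.7 against 31.5 CPM per kb, and Insig1 was above Insig2, at 68.9 against 6.14 CPM per kb. The reductases Lbr and Tm7sf2, which act on the same sterol double bond, differed as well, at 61.2 against 9.92 CPM per kb. In D395A the first 4 places held the same genes in the same order. Dhcr7 moved from place 13 to 7, Scap from 24 to 17, Abca1 from 27 to 22, and Ebp from 14 to 21.

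**Figure D2:**
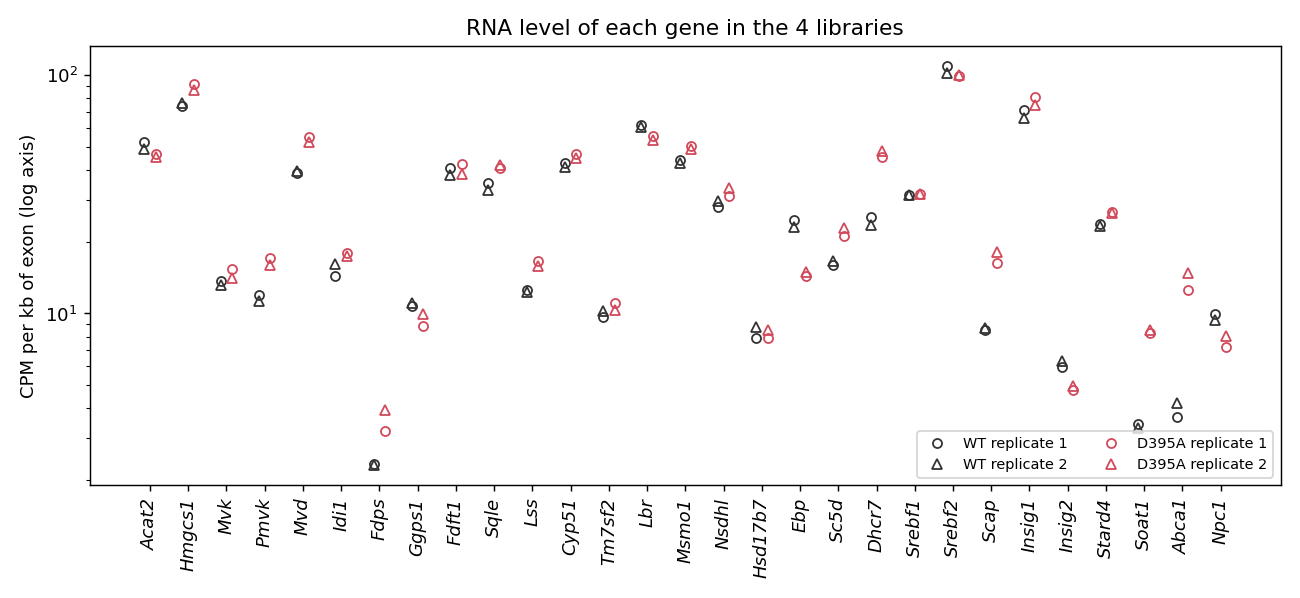
RNA level of each gene in CPM per kb of exon (y axis, log scale) in the 4 libraries, with circles for replicate 1 and triangles for replicate 2. Replicates lie close together, and the widest gaps between WT (black) and D395A (red) are in Abca1, Soat1, Scap, Dhcr7 and Ebp.

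In the mevalonate steps 5 of 8 genes rose, 1 fell and 2 did not pass, and their log2 fold changes had a median of 0.23. That is 62.5% that rose and 12.5% that fell, against 36.8% and 34.3% of all tested genes. Acat2, the cytosolic thiolase that joins acetyl-CoA units, stood at 133 and 125 CPM in WT, against 119 and 115 CPM in D395A, and did not pass (edgeR adjusted p = 0.0575). Hmgcs1, which makes HMG-CoA and whose promoter with the sterol element is printed above, rose from 340.3 and 350.2 CPM to 424 and 399 CPM. Its log2 fold change was 0.25 ± 0.07 (SE; edgeR adjusted p = 0.00359), with 12.1% of its exonic bases overlapped by AC123738.2, and the call was lost when either WT library was left out (adjusted p = 0.111 and 0.0548). Mvk, the mevalonate kinase, did not pass, with 36.6 and 35.3 CPM in WT and 41.2 and 37.7 CPM in D395A.

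Each of the next 3 enzymes, Pmvk, Mvd and Idi1, rose. Pmvk, the phosphomevalonate kinase, rose from 20.5 and 19.3 CPM to 29.2 and 27.4 CPM, a log2 fold change of 0.51 ± 0.09 (SE; edgeR adjusted p = 0.000134). Mvd, the decarboxylase that yields isopentenyl diphosphate, rose from 72.4 and 73.7 CPM to 102 and 97.8 CPM, a log2 fold change of 0.45 ± 0.06 (SE). Both genes separated the groups by several times the spread between replicates. Mvd lies on chromosome 8, where genes in the members' range of CPM had a median log2 fold change of -0.43 over 531 genes, and its whole length lies inside the opposite-strand gene Gm20388 with no shared exonic base. Idi1, the isomerase, rose from 50.2 and 56.5 CPM to 63.1 and 61.1 CPM, with the WT libraries farther apart than the higher of them was from the lower D395A library. Without WT replicate 1 the call for Idi1 was lost, and with DESeq2 its adjusted p was 0.0678.

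Fdps and Ggps1 stand where the pathway divides. Fdps, which makes farnesyl diphosphate, rose from 9.86 and 9.71 CPM to 13.5 and 16.5 CPM, a 1.55-fold rise (log2 fold change 0.63 ± 0.13 SE; edgeR adjusted p = 0.000542). This is the highest log2 fold change of the mevalonate genes but comes with the lowest level of all members. Gm43738, which had 0 counts in all 4 libraries, shares 26.7% of the exonic bases of Fdps on the same strand. Near-identical copies of Fdps also exist in the mouse genome, and how the counting treated shared reads is not given, so the level and the change are uncertain. Ggps1, which makes geranylgeranyl diphosphate for protein prenylation and lies outside the route to cholesterol, fell from 50.5 and 52.2 CPM to 41.8 and 47.2 CPM. Its log2 fold change of -0.20 ± 0.08 (SE; edgeR adjusted p = 0.0289) ranged from -0.09 without D395A replicate 1 to -0.30 without D395A replicate 2, and the call was lost in 5 of the 13 alternatives that tested it against no change.

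Sterol steps came out as 6 that rose, 2 that fell and 4 that did not pass of 12, and their log2 fold changes had a median of 0.15. Here 50% rose and 16.7% fell, against 36.8% and 34.3% of all tested genes. Squalene synthase Fdft1 stood at 172 and 161 CPM in WT, against 179 and 163 CPM in D395A, with overlapping groups (18.3% of its exonic bases are shared with Ctsb on the other strand). Sqle, the squalene epoxidase that acts next, rose from 195 and 184 CPM to 227 and 232 CPM, with a log2 fold change of 0.28 ± 0.06 (SE). Lss, the cyclase that closes the rings to lanosterol, rose from 136 and 132 CPM to 179 and 171 CPM, with a log2 fold change of 0.39 ± 0.06 (SE) and 3.53% of its exonic bases overlapped. Sqle lost its call without WT replicate 2 (edgeR adjusted p = 0.0888), whereas Lss passed in each alternative that tested it against no change.

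RNA changes were small for the genes of carbon 14 demethylation and of the reduction after it. Cyp51, which removes the methyl group at carbon 14, stood at 190 and 183 CPM in WT, against 207 and 199 CPM in D395A (edgeR adjusted p = 0.0838). It passed with upper quartile scaling and in 3 other alternatives. Tm7sf2 and Lbr reduce the double bond that CYP51 leaves. Tm7sf2 stood at 33.6 and 35.5 CPM in WT, against 38.6 and 36.0 CPM in D395A and did not pass, with 15.3% of its exonic bases shared with Vps51 on the same strand. Lbr, which is also a receptor for lamin B in the inner nuclear membrane, fell from 294 and 289 CPM to 265 and 255 CPM (log2 fold change -0.16 ± 0.06 SE; edgeR adjusted p = 0.0302), and lost its call in 6 of 13 alternatives against no change. Dnah14 overlaps 9.24% of its exonic bases.

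Removal of the methyl groups at carbon 4 takes Msmo1, Nsdhl and Hsd17b7 in turn. Msmo1, the methyl oxidase, rose from 271 and 264 CPM to 311 and 302 CPM, with a log2 fold change of 0.19 ± 0.06 (SE), and lies on chromosome 8 as Mvd does. Nsdhl, the decarboxylating dehydrogenase on the X chromosome, rose from 79.6 and 84.3 CPM to 89.2 and 95.8 CPM, with a log2 fold change of 0.18 ± 0.07 (SE). Hsd17b7, the ketone reductase, stood at 40.2 and 44.6 CPM in WT, against 40.1 and 43.4 CPM in D395A, with overlapping groups. The calls for Msmo1 and Nsdhl were lost when either WT library was left out, and that of Nsdhl also without D395A replicate 2 and with DESeq2.

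The last 3 members of the sterol branch moved farthest and in both directions. Ebp (ENSMUSG00000031168.14, chrX:8185329-8193512, minus strand), the isomerase that shifts the ring double bond, fell from 56.9 and 53.2 CPM to 33.2 and 34.5 CPM. Its log2 fold change was -0.70 ± 0.07 (SE; edgeR adjusted p = 1.01e-06), a 1.62-fold fall, and genes of the X chromosome in the members' range had a median of -0.08. Sc5d, the desaturase that acts next, rose from 77.8 and 81.0 CPM to 102 and 112 CPM, with a log2 fold change of 0.43 ± 0.07 (SE). Dhcr7 (ENSMUSG00000058454.15, chr7:143823145-143848410, plus strand), which reduces the double bond that EBP shifts, rose from 147 and 136 CPM to 264 and 279 CPM. The log2 fold change of Dhcr7 was 0.94 ± 0.07 (SE; edgeR adjusted p = 1.23e-08), the highest of the 20 enzymes. Neighbouring steps of the route therefore had RNA that moved in opposite directions, and each of the 3 kept its call in all 14 alternatives tested against no change.

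The sensing genes did not move together: 2 rose, 1 fell and 2 did not pass. The shares that rose and fell were 40% and 20%, against 36.8% and 34.3% of all tested genes. Both SREBP genes were nearly level. Srebf1 stood at 178 and 177 CPM in WT, against 179 and 179 CPM in D395A, a log2 fold change of 0.01 ± 0.06 (SE), and Srebf2 stood at 546 and 509 CPM and at 498 and 499 CPM, a log2 fold change of -0.08 ± 0.07 (SE). Neither passed (edgeR adjusted p = 0.872 and 0.311), which does not show that their RNA was the same. RNA levels also say nothing of how much SREBP protein is processed.

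Scap (ENSMUSG00000032485.14, chr9:110333288-110384950, plus strand), the escort of SREBP to the Golgi, rose 2.00-fold. It stood at 63.7 and 64.5 CPM in WT, against 121 and 134 CPM in D395A, a log2 fold change of 1.00 ± 0.07 (SE; edgeR adjusted p = 9.45e-09). The D395A libraries lay far above the WT libraries, but 13.2% of its exonic bases are overlapped by 5830462I19Rik, which had 0 counts in both WT libraries and 8.45 and 6.01 CPM in D395A. Reads outside the overlap were not counted separately, and the part of the overlap in the rise of Scap was not tested.

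The INSIG genes went apart. Insig1, which holds SCAP in the endoplasmic reticulum and is itself an SREBP target, rose from 221 and 205 CPM to 251 and 231 CPM, with a log2 fold change of 0.18 ± 0.07 (SE; edgeR adjusted p = 0.0303). Insig2, which has the same role but a lower level here, fell from 20.8 and 21.9 CPM to 16.5 and 17.2 CPM, with a log2 fold change of -0.34 ± 0.10 (SE; edgeR adjusted p = 0.00548). Insig1 lost its call when either WT library was left out, and Insig2 lost it with DESeq2 (adjusted p = 0.0937).

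Transport and storage held the largest rises. Abca1 (ENSMUSG00000015243.4, chr4:53030787-53159895, minus strand), the membrane pump that exports cholesterol to lipoprotein acceptors, rose from 38.1 and 43.5 CPM to 130.3 and 154 CPM. That is 3.47-fold, a log2 fold change of 1.80 ± 0.09 (SE; edgeR adjusted p = 2.39e-10), and its exons are free of overlap on either strand. Soat1 (ENSMUSG00000026600.12, chr1:156424525-156474331, minus strand), which esterifies cholesterol for storage, rose from 33.8 and 32.5 CPM to 81.3 and 83.8 CPM. Its log2 fold change was 1.32 ± 0.07 (SE; edgeR adjusted p = 6.11e-10), or 2.50-fold. In both genes the lower D395A library was well above the higher WT library.

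The remaining carriers moved less. Stard4, a soluble sterol carrier, rose from 133 and 130.4 CPM to 149 and 147 CPM, with a log2 fold change of 0.17 ± 0.06 (SE; edgeR adjusted p = 0.0203), and lost its call when either WT library was left out. Npc1, which releases cholesterol from lysosomes, fell from 106 and 100.5 CPM to 77.5 and 86.7 CPM, with a log2 fold change of -0.33 ± 0.07 (SE; edgeR adjusted p = 0.000702). It kept its call in each alternative that tested it against no change.

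Neighbouring gene lists are read against the same background, in which 36.8% of all tested genes rose and 34.3% fell (34.4% and 41.3% in the members' range). Of 12 genes for SREBP processing and sterol-controlled degradation in the endoplasmic reticulum, 6 rose (50%), 5 fell (41.7%) and 1 did not pass, at a median of 0.09 on the log2 scale. Pgrmc1, a haem-binding membrane protein that binds INSIG1 and CYP51, rose from 57.0 and 58.3 CPM to 114 and 110.4 CPM. Mbtps1, the site-1 protease that cuts SREBP in the Golgi, fell from 378 and 369.8 CPM to 229 and 242 CPM, and lies on chromosome 8. Erlin1, which restrains SREBP activation, and Paqr3, a Golgi anchor of SCAP with 15.7% overlap, fell with log2 fold changes of -0.46 and -0.37.

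Fatty acid synthesis genes, many of them also SREBP targets, split as 6 that rose, 4 that fell and 4 that did not pass of 14, with a median of 0.09. Acaca, the acetyl-CoA carboxylase, rose from 205 and 202 CPM to 268 and 301 CPM, and the desaturase gene Fads2 from 116 and 112 CPM to 164 and 171 CPM. Mid1ip1, with 25.5% overlap, rose with a log2 fold change of 0.70. Elovl6, a fatty acid elongase, fell from 427 and 433 CPM to 200.1 and 213 CPM, and Me1 (malic enzyme) and Lpin1 (a phosphatidate phosphatase) fell with log2 fold changes of -0.71 and -0.54.

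Of 15 genes that use isoprenoids outside sterol synthesis, 6 fell (40%), 2 rose (13.3%) and 7 did not pass, with a median of -0.11, and the share that fell was near the 41.3% of genes in the members' range. Both subunits of protein farnesyltransferase fell, Fntb from 101 and 96.8 CPM to 58.3 and 61.1 CPM, and Fnta, which lies on chromosome 8 and also serves geranylgeranylation, from 128 and 129 CPM to 87.4 and 83.8 CPM. Pggt1b, the other subunit for geranylgeranylation, fell with a log2 fold change of -0.60. Coq2, of ubiquinone synthesis, rose from 33.3 and 37.8 CPM to 71.7 and 68.8 CPM, and the prenyl protein protease gene Rce1 rose with a log2 fold change of 0.39. Of 6 tested genes accessory to sterol synthesis (Idi2 did not enter the test), Acat1 rose (log2 fold change 0.67), while the electron carrier genes Cyb5b, on chromosome 8, and Cyb5r3 fell (-0.46 and -0.40).

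Uptake, storage and efflux lists were mixed. Of 15 tested genes of sterol uptake and storage, 8 rose, 5 fell and 2 did not pass, with a median of 0.27. Lipa, the lysosomal lipase that frees cholesterol from esters, rose from 15.2 and 15.6 CPM to 27.9 and 31.6 CPM, and Scarb1, the receptor for high-density lipoprotein, from 113 and 112 CPM to 171 and 174 CPM. Npc2, the lysosomal partner of NPC1, fell from 352 and 333 CPM to 193 and 184 CPM, so both genes of that pair fell. Gramd1b and Lrp1 fell, with log2 fold changes of -0.79 and -0.60.

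Of 10 tested genes of LXR signalling and efflux, the sterol-activated pathway of which Abca1 is a classic target, 4 rose, 3 fell and 3 did not pass. Arl4c rose from 1.72 and 1.99 CPM to 23.2 and 20.8 CPM and Smpdl3a from 0.598 and 0.322 CPM to 3.73 and 3.14 CPM, and both are LXR targets in other cells. Rxra, the partner receptor of LXR, rose from 35.2 and 36.8 CPM to 72.7 and 76.8 CPM. Abcg1, an exporter that is an LXR target too, fell from 20.2 and 19.4 CPM to 7.23 and 7.07 CPM. Abcg4 fell with a log2 fold change of -1.42 and Nr1h2, which encodes LXRβ, with one of -0.27. Known LXR targets thus stood on both sides of WT.

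**Figure D3:**
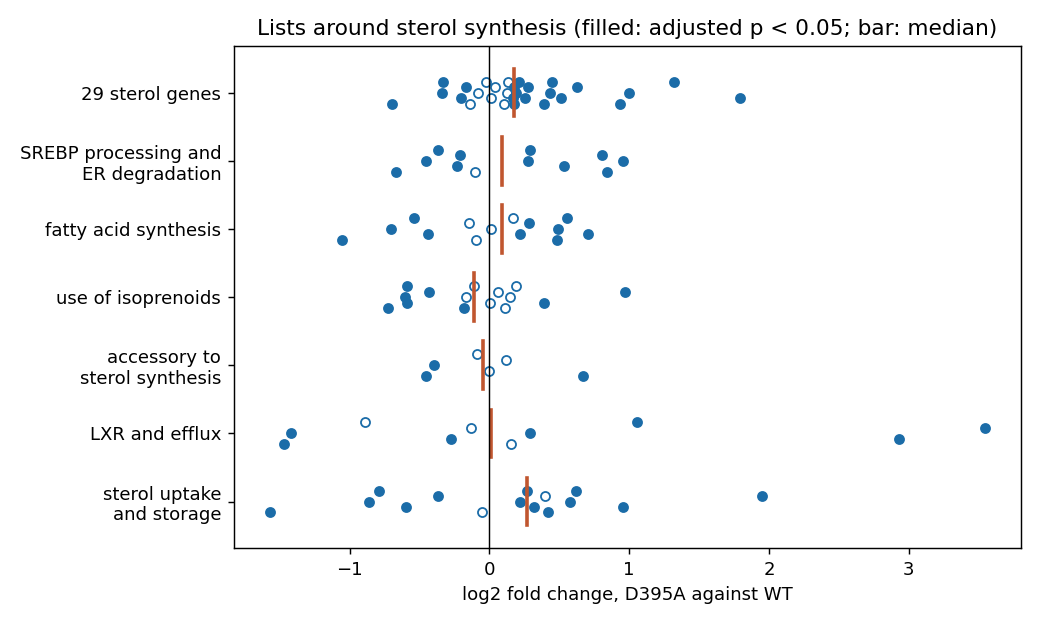
Log2 fold change of D395A against WT (x axis) for the 29 sterol genes and for the tested genes of 6 neighbouring lists, 1 point per gene, filled where the test was passed. Red bars mark the medians, from -0.11 in the use of isoprenoids to 0.27 in sterol uptake and storage.

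Peak lists show where m6A was found on chromatin RNA of the same genes (build mm10). Their fold enrichment over input at the summit, p and q are the authors' values. The WT list holds 48445 peaks with q below 0.05, while the D395A list holds 38823 peaks with p below 0.05, of which 5275 have q below 0.05. Thresholds and library numbers therefore differ between the lists, and with 1 list per genotype there is no replicate check and no test. A gene was counted where a peak overlapped its body by 1 bp or more.

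The WT list placed 42 peaks in 22 of the 29 genes, against 66.5% of all tested genes and 77.6% of those in the members' range of CPM. Idi1, Fdps, Lbr, Srebf1, Insig2, Stard4 and Soat1 had no WT peak. The D395A list placed 49 peaks in 23 genes, against 52.6% of tested genes and 72.4% in the range. Of the 49, 14 had q below 0.05, in 10 genes, against 17.3% of tested genes with such a peak. A WT peak and no D395A peak was found in 5 genes (Mvd, Fdft1, Lss, Tm7sf2 and Insig1), against 26.2% of tested genes and 20% in the range, and the reverse in 6 genes (Idi1, Fdps, Lbr, Insig2, Stard4 and Soat1), against 12.3% and 14.8%. Both lists had a peak in 17 genes (40.3% of tested genes and 57.5% in the range), and Srebf1 had none. With q below 0.05 in both lists, 15 genes had a WT peak and no D395A peak, against 53.6% of tested genes. A peak in WT alone was thus no more frequent than over tested genes, and no test bears on the other shares.

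**Figure D4:**
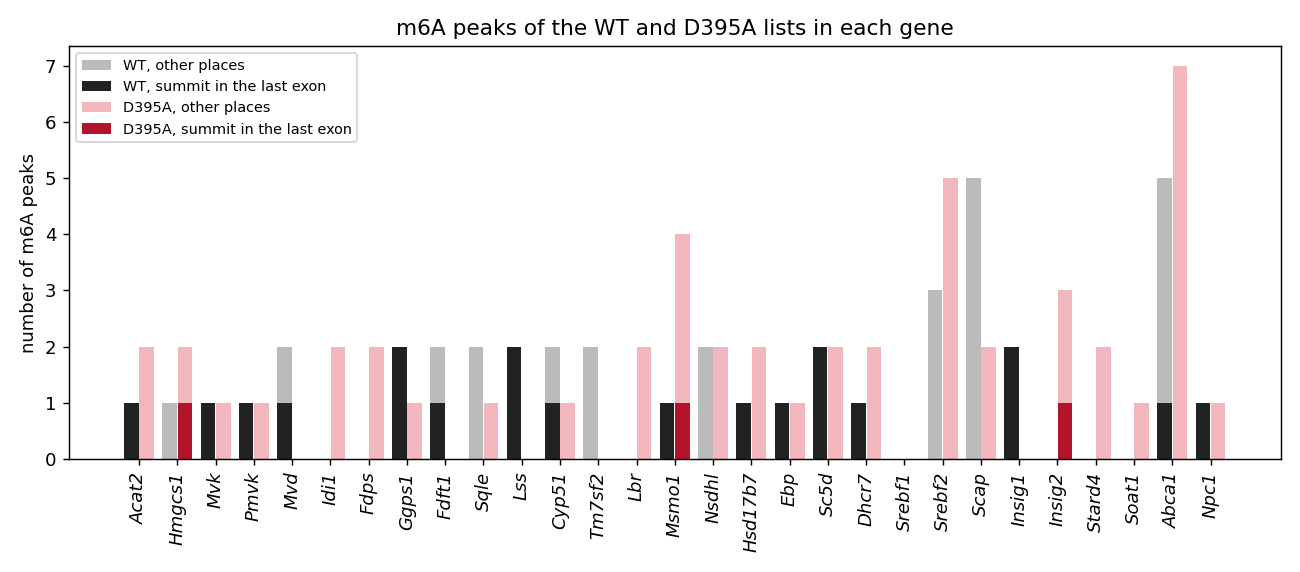
Number of m6A peaks (y axis) in each of the 29 genes in the WT list (grey and black) and the D395A list (pink and red), dark where the summit lies in the last exon. Last-exon peaks are seen in 16 genes in WT and in 3 genes in D395A. Abca1 and Scap have the most WT peaks, with 5 each, and Abca1 has the most D395A peaks, with 7.

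The positions of the peaks differed more than their number. In WT, 20 of 42 peaks (47.6%) had the summit in the last exon, against 30.1% of WT peaks in all tested genes, and in D395A 3 of 49 (6.12%) did, against 7.12%. Summits in introns or outside the gene made up 33.3% of member peaks in WT and 61.2% in D395A, against 43.9% and 79.1% of the peaks in all tested genes. Last-exon peaks lay in 16 genes in WT and in 3 in D395A (Hmgcs1, Msmo1 and Insig2), where none of the 3 peaks had q below 0.05 (q = 0.878, 1 and 0.915), a threshold that all WT peaks met. Median fold enrichment over the member peaks was 4.13 in WT (1.76 to 18.7) and 2.76 in D395A (1.48 to 6.24). All peaks in the lists had medians of 6.31 and 2.66. Of the 42 WT peaks, 4 (9.52%) overlapped a D395A peak, against 11.9% over all tested genes: those in exon 3 of Hmgcs1, exon 1 of Sqle, the last exon of Msmo1 and exon 2 of Srebf2.

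**Figure D5:**
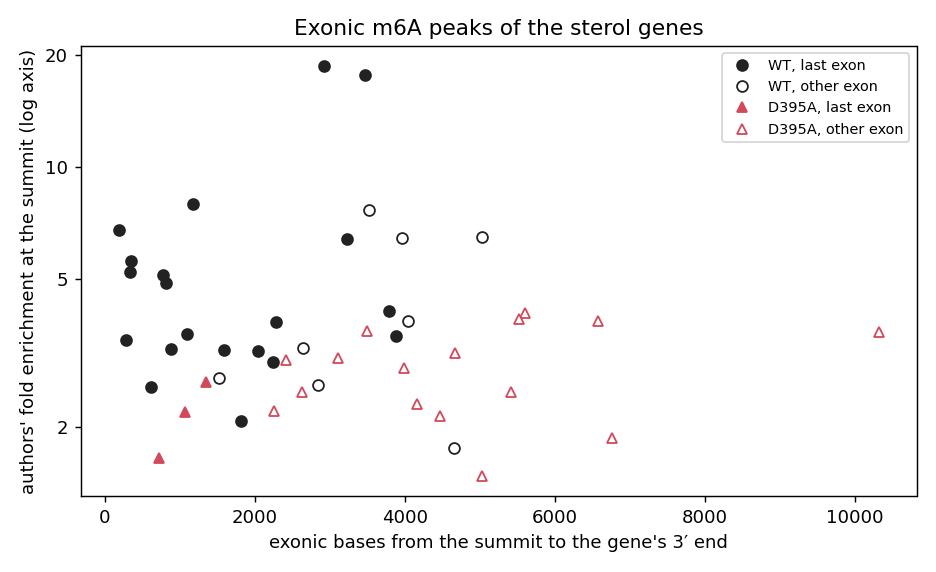
Authors' fold enrichment of each exonic peak of the 29 genes (y axis, log scale) against the number of exonic bases from its summit to the 3′ end of the gene (x axis). Black circles are WT peaks and red triangles D395A peaks, filled where the summit is in the last exon, and the 2 highest points are last-exon peaks of Abca1 and Ggps1 in WT.

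The strongest WT peaks, those of Abca1 and Ggps1, belonged to genes whose RNA moved in opposite directions. In Abca1 a peak of 18.7-fold enrichment covered 2201 bp of the last of 50 exons (chr4:53032219-53034419), and none of its 5 WT peaks overlapped its 7 D395A peaks, the highest of which was at 6.24 in an intron. Ggps1, whose RNA fell with a call that depended on the processing, had a peak of 17.8-fold in its last exon (chr13:14053225-14054561) and no last-exon peak in D395A. Dhcr7, whose RNA rose, had a peak of 7.99-fold in its last exon (chr7:143846883-143847839), and Ebp, whose RNA fell, one of 5.25-fold (chrX:8185415-8185900). Neither had a D395A peak in its last exon. Several other members had WT peaks stronger than that of Ebp, among them Mvk (6.79-fold), whose RNA did not pass. The Mvk peak has its summit in the last exon, but less than 50% of its length lies in the gene. Soat1, with the second highest rise, had no WT peak.

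Some peaks cannot be assigned to a single gene. Peaks at Mvd (9.63-fold), Tm7sf2 (9.63-fold) and Scap (5.80-fold) had their summits outside the gene, those of Tm7sf2 and Scap reaching exons of Znhit2 and Ptpn23. Inside Scap 4 weaker WT peaks were listed, at 2.71 to 4.45-fold, none of them in the last exon. At Hmgcs1 the shared exon 3 peak, at 3.87-fold in WT and 2.31-fold in D395A, covers bases of AC123738.2. Srebf2 kept a peak in exon 2, at 1.76-fold in WT and 3.16-fold in D395A, and folds from separately called lists give no measure of change.

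Split by the RNA result, 12 of the 16 genes that rose had a WT peak, as did 3 of the 5 that fell and 7 of the 8 that did not pass. A WT peak in the last exon was found in 8, 3 and 5 of these genes. With counts of this size no difference between the groups can be read.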

How the data were processed

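RNA-seq counts of 4 libraries and 2 m6A peak lists were used, from 10 of the 56 samples. The counts per gene are as deposited by the authors, in the layout of featureCounts, with exon coordinates and exonic length. Fold enrichment over input at the summit is as deposited, from the authors' peak caller. Each peak's -log10 p, and its -log10 q, are deposited values of the same caller. The submitters' processing notes name, without role or order, featureCounts 1.6.3, MACS2 2.1.1, HISAT2 2.1.0, Bowtie2 2.3.4.1, edgeR 3.22.5, Trimmomatic 0.33.0, SAMtools 1.7, Picard 2.16.0 and FastQC, and the build mm10. How the WT libraries were combined into 1 peak list is not stated, and 2 unlabelled further columns of that list were left out. A count column whose name differs from D395A in 1 character was taken as D395A replicate 1.

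Counts were filtered with filterByExpr, scaled with TMM and tested in edgeR 4.0.16 under R 4.3.3 (glmQLFit and glmQLFTest, WT and D395A libraries only, no covariate). The SE of a log2 fold change is its size divided by the square root of the F statistic. CPM per kb is CPM divided by the exonic length of the table. Exonic overlap was computed from the table's exon coordinates, peaks were assigned with bedtools 2.31.1, and an exon is a merged exon of all transcripts. Promoters are from RefSeq (GRCm38.p6). The code was tested on simulated data, and Python 3.11.15 with pandas 2.3.3 and matplotlib 3.10.9 made the tables and plots.

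All 29 members are named, with up to 3 called genes per direction and neighbouring list by smallest adjusted p, some of which are not reported here. Members and lists were chosen with earlier results of these data known. Alternatives were DESeq2 1.42.0, limma-voom (limma 3.58.1), edgeR's exact test, other scalings and count filters, a replicate block, a test against a fold of 1.5, leaving out overlapped genes or each library, and other peak thresholds and overlaps. The biological coefficient of variation was 5.47%. Human HEK293T lists and chromatin immunoprecipitation were not used here.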

Additional observations from a re-analysis of the deposited data

How the results depend on the processing

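Of the 21 called members, 11 kept their call in all settings that tested them against no change: Pmvk, Mvd, Fdps, Lss, Sc5d, Dhcr7, Scap, Soat1 and Abca1 as rises, and Ebp and Npc1 as falls. The number of falls (5) became 2 with DESeq2, 3 with scaling factors from genes without opposite-strand overlap, and 2 of 19 members without overlapped genes. Of tested genes, 26.6%, 31.3% and 34.3% fell in these settings. Fewer members were tested in the last case, and the cause was not tested in the others. In edgeR's test against a fold change of 1.5, 4 members rose (Dhcr7, Scap, Soat1 and Abca1) and 0 fell, against 22.3% and 14.5% of tested genes. Ebp, the 1 fall at an unadjusted p below 0.05, was at an adjusted p of 0.06 in that test, whereas against no change edgeR called 5 falls. With 1 library left out, 10 to 17 members rose and 3 to 5 fell, the fewest of each when either WT library was left out, and the lone library is then assumed to vary like the other group. With a replicate block in edgeR, 16 rose and 4 fell, against 37.4% and 35.1% of tested genes, Lbr losing its call (adjusted p = 0.0525). Replicate deviations correlated at 0.145 between the groups over 2 pairs, and since the labels tie the numbers to nothing shared, they were not taken as pairs.

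Signs turned only among members that did not pass. Hsd17b7 was at 0.029 with scaling factors from genes without overlap and 0.029 without overlapped genes, and at -0.10 to 0.058 with 1 library left out. Srebf1 was at -0.0073 with scaling factors from outside chromosomes 8 and Y, and at -0.0012 to 0.044 with 1 library left out, where Fdft1 ran from -0.019 to 0.11. The cause was not tested. The median log2 fold change of all genes shifted by 0.053 with each of the 2 settings that set overlapped genes aside, and by less than that in the others.

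Members with a peak in WT but none in D395A numbered 15 with q below 0.05 in both lists and 10 where a peak had to overlap an exon, against 53.6% and 35.4% of tested genes. WT peaks shared with D395A numbered 2 (4.76%) at an overlap of 50%, the stricter overlap being the only change, against 4.025% over all tested genes. With q below 0.05 in both lists, where 14 of 49 D395A peaks remain, 1 (2.38%) was shared, against 2.83%.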
